A study of Nematostella vectensis with 15 samples.

Results

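A group of 139 *Nematostella vectensis* genes had its highest expression in polyps cultured at 20 °C, above both the cooler and the warmer culture. The genes were chosen from 27527 gene models by their measured levels. CPM is the count of a gene divided by the total of its library and multiplied by 1000000, and the level used for the choice was log2(CPM+1). A gene was taken if its mean CPM over the 15 libraries was from 5 to under 1000 and its pooled SD within temperatures was under 0.6. In addition, its mean level at 20 °C had to exceed the means at 15 °C and at 25 °C by at least 0.4 each. The first 2 limits alone left 12280 genes, of which the 139 were 1.13%. Differences between 20 °C and the other temperatures are therefore a description of the choice and carry no test.

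The libraries came from the mesenteric body portion of adult female polyps, which were F1 offspring of the CH2XCH6 cross. All were kept at 16‰ salinity, and the groups were 15, 20, and 25 °C with 5 libraries each. The RNA was enriched for polyadenylated transcripts and sequenced as stranded libraries. Polyps of 1 cross limit the data as a model of the species, and the labels do not say whether a library was made from 1 polyp or whether polyps of a temperature shared a culture box. A box or a day of processing that followed the temperatures cannot be told apart from temperature, and p-values measure only the spread between these libraries.

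*Nematostella*, the starlet sea anemone, is an estuarine cnidarian that cannot regulate its body temperature and meets wide swings of temperature in its habitat. Its mesenteries are sheets of tissue inside the body column that carry the gonads, the retractor muscles, and filaments with gland cells and stinging cells. A trait plotted against culture temperature is called a reaction norm, and a trait that is highest at an intermediate temperature has a hump-shaped one. In bulk tissue a transcript can be scarcer because fewer cells of a type are present or because each cell holds less of it, and these cannot be told apart here.

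Of the 27527 identifiers in the count table, 0 matched the RefSeq gene table of the species. The deposited files do not pair identifiers with gene names. For this reason no gene function is given, marker genes of the mesentery and of its cell types were not examined, and only 4 genes are called by their identifiers. Positions are those of the deposited gene models on the NEMVEscaffold sequences.

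Total counts per library ran from 3526175 to 22160961. Their medians were 7727786 (15 °C), 14234219 (20 °C), and 11095025 (25 °C), so the 15 °C libraries were the least deep. The limit that a count of 0 allows, 3 counts, equaled a CPM of 0.851 at the least depth and 0.135 at the greatest, and it covers counting error only. Of the 139 genes, 0 had a count of 0 in any library. In the library with the lowest total, replicate 3 at 15 °C, the chosen genes had a median of 76 counts and 6 of them had fewer than 10. With every library thinned to that lowest total, 122 of the 139 still met the limits.

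The median chosen gene was 0.70 higher at 20 than at 15 °C on the log2(CPM+1) scale, a 1.63-fold difference, and 0.63 higher at 20 than at 25 °C, a 1.55-fold difference. Over all 12280 genes within the limits the medians were 0.08 and -0.01. The largest difference was 2.55 against 15 °C and 2.22 against 25 °C, in different genes. At least a doubling on this scale was seen in 37 genes against 15 °C and in 27 genes against 25 °C. In 46 genes both differences were at least 0.6, in 15 at least 0.8, and in 5 at least 1.

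**Figure D1:**
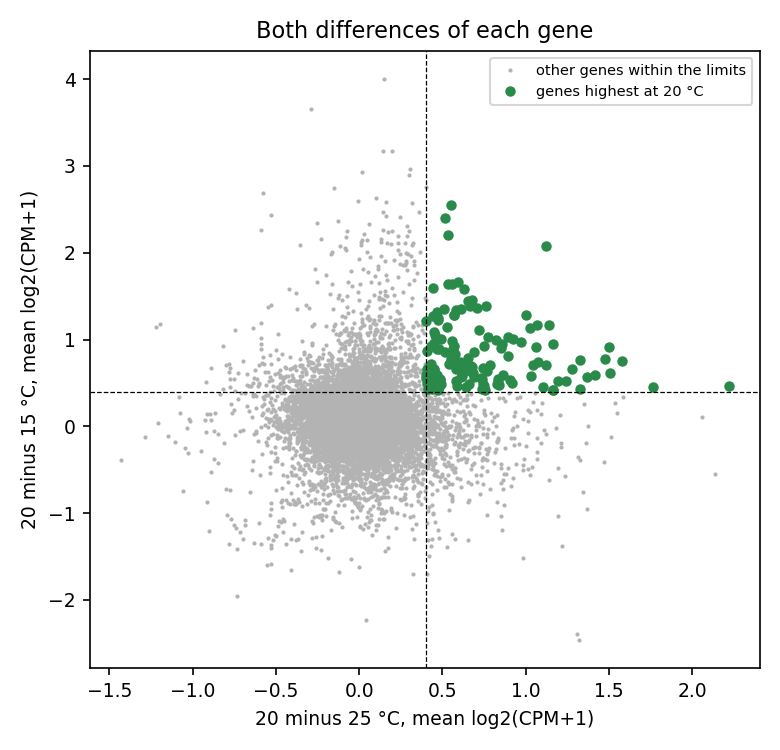
Each point is a gene within the limits on mean CPM and SD, with the 20 minus 25 °C difference of mean log2(CPM+1) on the horizontal axis and the 20 minus 15 °C difference on the vertical axis. The 139 green genes lie above 0.4 (dashed lines) on both axes, and 46 of them lie above 0.6 on both.

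Most genes that met 1 of the limits on the differences did not meet both. Of the 1704 genes within the limits that were higher at 20 than at 15 °C by 0.4, 8.16% were also higher at 20 than at 25 °C by that amount. Of the 632 genes that were higher at 20 than at 25 °C by 0.4, 22.0% were also higher than at 15 °C. Both shares were higher than over all 12280 genes within the limits, of which 632 and 1704 met those limits, in the same order. Both differences use the mean at 20 °C, so they are not independent, and the overlap was not tested. The opposite shape, with the mean at 20 °C lower than both others by 0.4, was found in 63 genes under the same limits. At 0.6 there were 46 genes highest and 19 lowest at 20 °C, and at 0.8 there were 15 and 2. The contrast at 0.4 moved with single libraries. Without replicate 1 at 20 °C there were 133 genes highest and 97 lowest, and without replicate 4 at 20 °C there were 133 and 41. With libraries thinned to the lowest total there were 160 and 87.

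The edge of the group is not a gap. The 2 chosen genes nearest to the limit had smaller differences of 0.4001 and 0.4004, and the 2 nearest outside it had 0.3996 and 0.3989. Another 135 genes within the limits had a smaller difference of 0.3 or more but under 0.4. The limit on SD left out 22 genes of the CPM range that met both differences, and 9 chosen genes had an SD of 0.5 or more.

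In single libraries, the median deviation of the chosen genes from their mean over the 3 temperatures was -0.46 to -0.10 at 15 °C, 0.44 to 0.60 at 20 °C, and -0.29 to -0.05 at 25 °C. The 20 °C libraries did not overlap with the others, and the 15 and 25 °C libraries overlapped with each other. All genes within the limits had medians from -0.18 to 0.08 at 15 °C, from -0.05 to 0.14 at 20 °C, and from -0.01 to 0.11 at 25 °C. The chosen genes held 0.843% to 1.05% of all counts in the 15 °C libraries, 1.55% to 1.63% in the 20 °C libraries, and 0.771% to 0.913% in the 25 °C libraries. The higher medians and shares of the chosen genes at 20 °C follow from the choice.

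**Figure D2:**
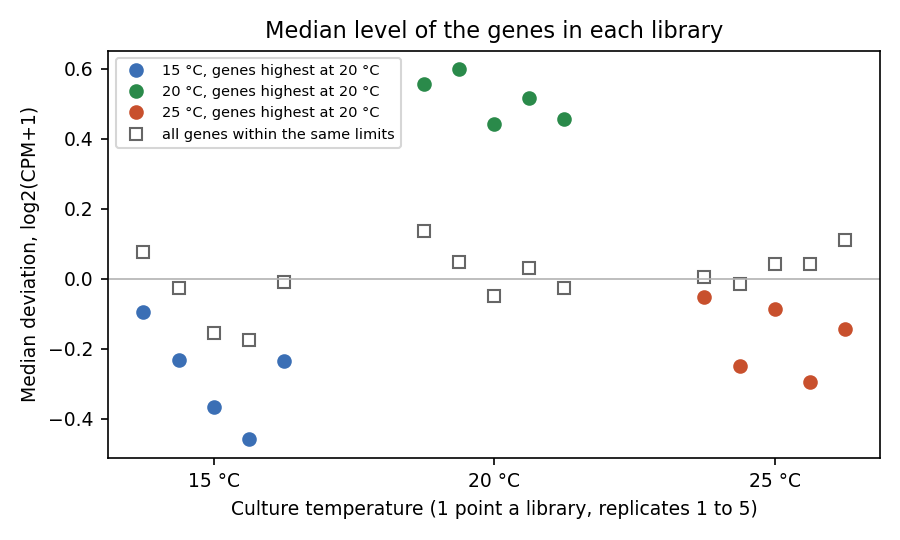
Filled circles give the median deviation of the 139 genes in each library, on the log2(CPM+1) scale, and open squares give that of all 12280 genes within the limits. The 5 libraries at 20 °C lie between 0.44 and 0.60, above every library at the other temperatures, while the squares stay between -0.18 and 0.14. The higher circles at 20 °C follow from the choice of the genes.

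The highest of a gene's 15 libraries was a 20 °C library in 136 of the 139 genes, a 15 °C library in 2, and a 25 °C library in 1. Over all genes within the limits it was a 20 °C library in 35.5%. In 49 genes (35.3%) all 5 libraries at 20 °C exceeded all 10 others, where 0.554% of all genes within the limits did. Both results for the chosen genes follow from the choice. Of these 49 genes, 18 had a mean CPM under 20, 16 from 20 to under 100, and 15 of at least 100, out of 60, 50, and 29 chosen genes in those ranges.

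The chosen genes varied more between libraries of one temperature than other genes within the limits. Their median SD within temperatures was 0.31, against 0.21 for all genes within the limits, in units of log2(CPM+1). By temperature, the median SD of the chosen genes was 0.33 at 15 °C, 0.24 at 20 °C, and 0.27 at 25 °C. The same medians over all genes within the limits were 0.24, 0.18, and 0.16. The limit on SD was the same for both sets, but a noisier gene can pass the limits on the differences more easily by sampling error. The larger spread can therefore follow from the choice, and it is given without a test.

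**Figure D3:**
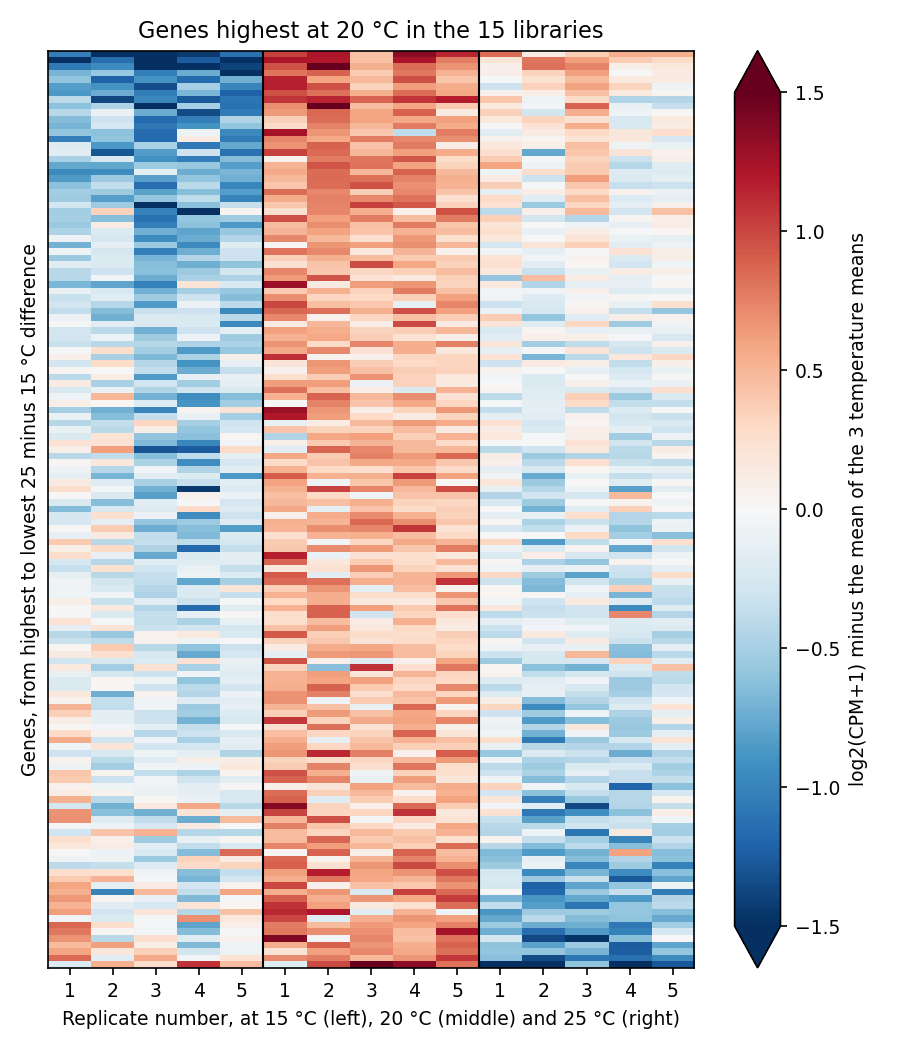
Each row is 1 of the 139 genes and each column 1 library, with color for log2(CPM+1) minus the mean of the 3 temperature means, and rows are ordered by the 25 minus 15 °C difference. The middle block, at 20 °C, is highest by the choice of the genes. The lowest block is at 15 °C in the upper rows and at 25 °C in the lower rows.

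The pattern was next read in libraries kept out of a repeated choice of genes. The limits were applied to the 12 libraries left after 1 library of each temperature, those with the same replicate number, was kept out, and this was done for each of the 5 numbers. Each choice gave 130 to 203 genes, of which 104 to 130 were among the 139. In the 3 libraries kept out, the 20 °C library was the highest for 61.1% to 89.2% of the genes so chosen, on average 75.4% ± 10.9 (SD, n = 5 choices). Over all genes within the limits this share was 14.9% to 43.4%, and it was lower than that of the chosen genes for each of the 5 numbers. The 5 choices share most of their libraries, so they are not independent, and no test was made. The limits themselves were set with earlier results of these data known. Libraries kept out also share any box or day of processing that followed the temperatures. The shares are therefore not independent support for a peak at 20 °C.

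On average the differences were smaller in the libraries kept out than in those used, but not for each replicate number. Between the 20 and 15 °C libraries kept out, the median difference was 0.50 to 0.82, on average 0.65, against an average of 0.73 in the 12 libraries used. Between the 20 and 25 °C libraries kept out, it was 0.27 to 0.73, on average 0.52, against 0.61 in those used. The median was larger in the libraries kept out than in those used for number 3 (20 minus 15 °C, 0.82 against 0.76) and for numbers 2 (0.73 against 0.61) and 4 (0.70 against 0.61) in the 20 minus 25 °C difference. The lowest share and the lowest difference to 25 °C were both found when the libraries numbered 3 were kept out. Genes chosen in the same way for being lowest at 20 °C numbered 28 to 94. Of them, 45.7% to 89.4% were lowest in the 20 °C library kept out, on average 75.8%. Over all genes within the limits this was 16.9% to 38.5%, on average 24.5%. The opposite shape thus recurred in kept-out libraries about as often as the shape highest at 20 °C, with its average of 75.4%.

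**Figure D4:**
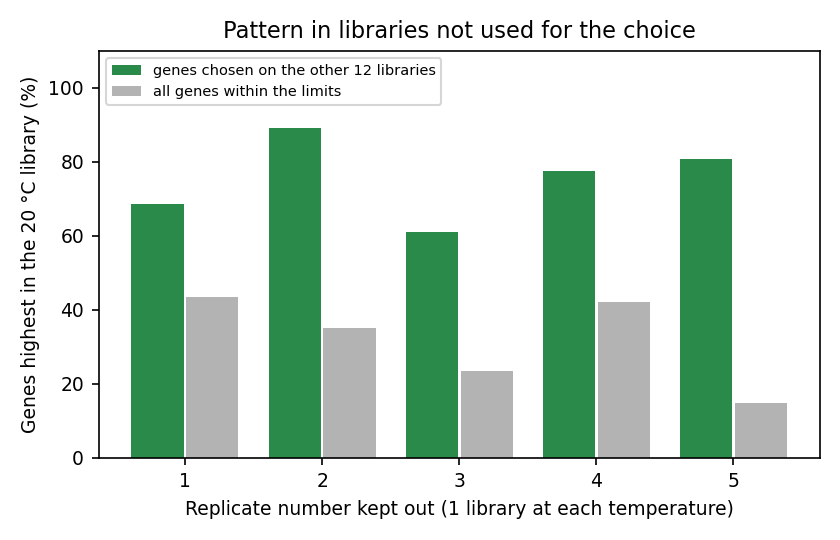
Green bars give the percent of genes, chosen on 12 libraries, that were highest in the 20 °C library among the 3 libraries kept out, and gray bars give the same percent over all genes within the limits. The green bars run from 61.1% to 89.2% and the gray bars from 14.9% to 43.4%, and green is the higher for each replicate number.

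The choice set no limit on the difference between 25 and 15 °C and treated both temperatures alike, so this comparison was tested. It asks on which side of 20 °C the level fell further. All 139 genes passed the filter on low counts, which kept 17818 genes. At 25 °C, 30 of the 139 genes (21.6%) were higher than at 15 °C and 21 (15.1%) were lower, with an adjusted p under 0.05 (edgeR quasi-likelihood test, Benjamini-Hochberg over all tested genes). Among all tested genes, 15.0% were called higher and 16.7% lower at 25 °C, and among all genes within the limits 17.6% were called higher and 17.6% lower. In either direction 36.7% of the chosen genes were called, against 31.7% of all tested genes and 35.2% of all genes within the limits, so the share of called genes was near that of the background. The median log2 fold change was 0.02 for the chosen genes and 0.00 for all tested genes. The libraries of the test also served the choice, whose limit on SD favors steady genes.

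The other 88 chosen genes did not pass this test, which does not show equal levels. Called changes ran from -1.88 to 2.69 on the log2 scale, and 11 of the 51 called genes reached an absolute log2 fold change of 1. All 5 libraries at 25 °C exceeded all 5 at 15 °C in 18 genes (12.9%) and lay below them in 9 (6.47%), where 16.3% and 5.61% of the genes within the limits did.

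By the size of this difference the genes form a range of shapes, described here without a test. In 85 genes (61.2%) the means at 25 and 15 °C lay within 0.4 of each other, and the median fold at 20 °C was 1.56 against 15 °C and 1.56 against 25 °C. Over all genes within the limits, 70.3% had so small a difference between 25 and 15 °C. In 35 genes the mean at 25 °C was higher than at 15 °C by 0.4 or more, so that 25 °C was intermediate. Their median fold at 20 °C was 2.53 against 15 °C and 1.44 against 25 °C. In the remaining 19 genes 15 °C was intermediate, and the median fold at 20 °C was 1.48 against 15 °C and 2.50 against 25 °C. All 20 °C libraries exceeded all others in only 2 of these 19 genes, against 15 of the 35 and 32 of the 85. These 19 were also the more abundant genes, with a median of the mean CPM of 96.2, against 24.1 for the 35 genes and 25.5 for the 85.

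NEMVEDRAFT_v1g41116.EDO30878 had the largest smaller difference of all chosen genes. It is a JGI model of 4 exons with 651 bp of exon sequence on the minus strand of NEMVEscaffold_465, from 38140 to 44641. Its CPM was 89.9, 77.2, 72.3, 54.2, and 65.7 at 15 °C, 170, 167, 137, 135, and 199 at 20 °C, and 74.9, 59.3, 76.0, 67.0, and 86.3 at 25 °C. All 20 °C libraries lay above all others, and those at 25 and 15 °C overlapped. The mean was 2.24 times as high at 20 as at 15 °C and 2.20 times as high at 20 as at 25 °C on the log2(CPM+1) scale. Between 25 and 15 °C the log2 fold change was -0.06 ± 0.12 (SE), which did not pass the test (edgeR adjusted p = 0.752).

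NEMVEDRAFT_v1g179157.EDO47772 was second by the same measure. It is a JGI model of 2 exons with 750 bp of exon sequence on the plus strand of NEMVEscaffold_11, from 396541 to 397423. Its CPM was 44.1, 21.9, 29.2, 23.7, and 27.0 at 15 °C, 124, 130, 107, 123, and 133 at 20 °C, and 78.3, 55.1, 71.2, 42.4, and 42.8 at 25 °C. The 20 °C libraries again lay above all others. The lowest 25 °C libraries lay below the highest 15 °C library. The level at 20 °C was 4.23 times that at 15 °C and 2.17 times that at 25 °C. At 25 °C it was higher than at 15 °C by a log2 fold change of 0.93 ± 0.19 (SE, edgeR adjusted p = 0.00124).

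Among the genes called higher at 25 than at 15 °C, NEMVEDRAFT_v1g246103.EDO35263 had the smallest p. This JGI model has 2 exons with 3307 bp of exon sequence on the plus strand of NEMVEscaffold_197, from 73982 to 77945. Its CPM was 6.09, 8.70, 6.24, 7.90, and 5.82 at 15 °C, 48.7, 47.6, 27.7, 48.7, and 35.1 at 20 °C, and 23.0, 36.1, 31.7, 26.6, and 24.9 at 25 °C. All 15 °C libraries lay below all others, and those at 20 and 25 °C overlapped. The log2 fold change of 25 over 15 °C was 1.93 ± 0.18 (SE, edgeR adjusted p = 4.58e-07), with 5 of 5 libraries at 25 °C above all at 15 °C.

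TU9061 had the smallest p among the genes called lower at 25 than at 15 °C. It is a model assembled by TACO, with 6 exons and 1439 bp of exon sequence on the minus strand of NEMVEscaffold_13, from 1115704 to 1118548. Its CPM was 220, 107, 180, 118, and 142 at 15 °C, 198, 208, 172, 192, and 254 at 20 °C, and 77.9, 47.2, 56.6, 55.4, and 62.1 at 25 °C. The 25 °C libraries lay below all others, and those at 20 and 15 °C overlapped. The log2 fold change of 25 over 15 °C was -1.43 ± 0.18 (SE, edgeR adjusted p = 8.79e-06). The model overlaps a model on the opposite strand, and the sources used here do not state how the deposited table treated strand or overlaps, so its counts are uncertain.

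**Figure D5:**
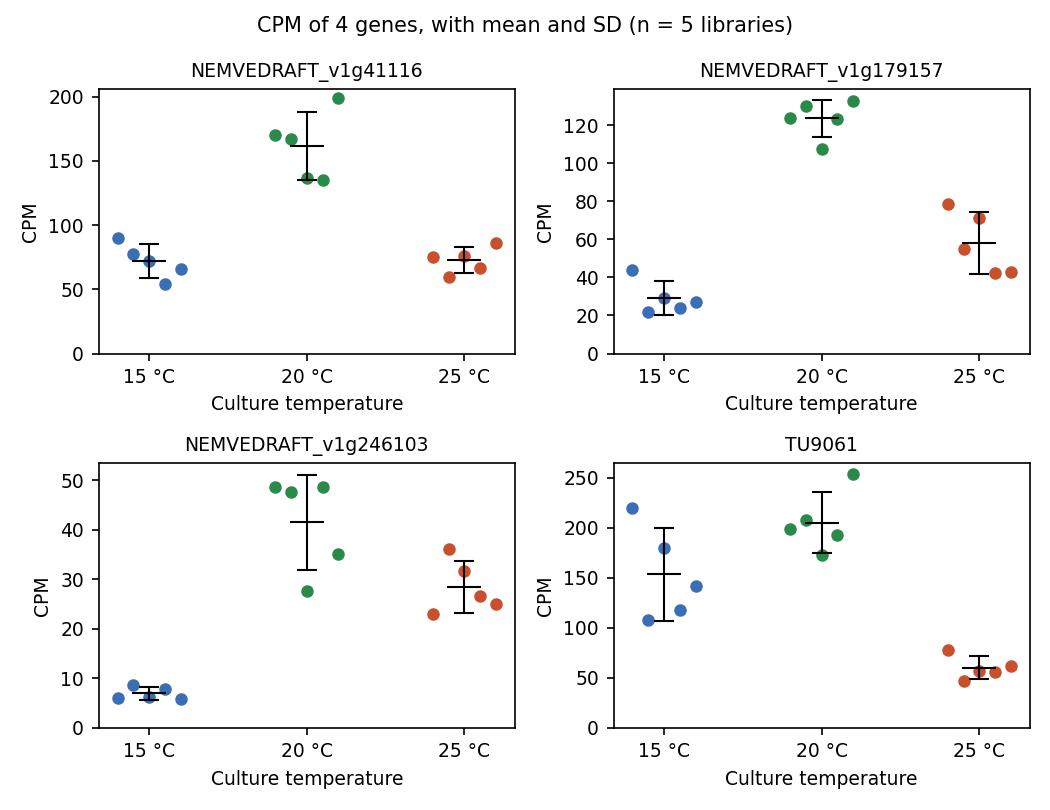
CPM of the 4 genes in each library at 15, 20, and 25 °C, with the mean (wide bar) and SD (n = 5 libraries). In the upper genes every 20 °C library lies above the others, at 25 °C the lower left gene stays near 20 °C, and the lower right gene is low at 25 °C alone.

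Levels spanned a wide range. The mean CPM of the chosen genes ran from 5.10 to 935 with a median of 27.6, against a median of 19.9 for all genes within the limits. Per length, the RPKM (CPM divided by exon kilobases) ran from 1.07 to 848, with a median of 23.0 for the chosen genes and 12.9 for all genes within the limits.

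The 3 genes with the highest CPM differed in shape. The first, a TACO model on NEMVEscaffold_49, averaged 1032 ± 340.0 CPM at 15 °C, 1471 ± 561 at 20 °C, and 303 ± 103 at 25 °C (SD, n = 5 libraries). Its libraries at 20 and 15 °C overlapped widely, and it was lower at 25 than at 15 °C by a log2 fold change of -1.88 (edgeR adjusted p = 0.000652). The second, a TACO model of 28 exons on NEMVEscaffold_48, averaged 727 ± 242 CPM at 15 °C, 1200.1 ± 189 at 20 °C, and 429.9 ± 54.4 at 25 °C (SD, n = 5 libraries). It too was lower at 25 than at 15 °C, by a log2 fold change of -0.82 (edgeR adjusted p = 0.000565). The third, a JGI model on NEMVEscaffold_171, had the highest level per length, 848 RPKM, and averaged 521 ± 134 CPM at 15 °C, 774 ± 197 at 20 °C, and 575 ± 97.1 at 25 °C. It was also the chosen gene nearest to the 0.4 limit, and replicate 1 at 20 °C, with 437 CPM, lay below 3 of the 15 °C libraries and 4 of the 25 °C libraries.

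The largest fold against 15 °C, 5.87, belonged to a gene of low level, a JGI model of 4 exons on NEMVEscaffold_218. Its CPM was 1.59, 0.331, 0.284, 0.936, and 1.42 at 15 °C, 9.67, 11.2, 6.12, 12.4, and 10.6 at 20 °C, and 8.39, 4.70, 5.79, 6.67, and 6.64 at 25 °C. All 15 °C libraries lay below all others, and those at 20 and 25 °C overlapped. Its lowest count was 1, in the library with the lowest total, so its level at 15 °C is known only roughly, and its fold on this scale is an understatement because of the added 1.

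The 12 genes with the largest smaller differences averaged 9.97 to 678 CPM at 20 °C. In 11 of them all 20 °C libraries exceeded all others, which the ranking favors, where 0.554% of all genes within the limits did. Between 25 and 15 °C 2 of the 12 were called, against 35.2% of all genes within the limits. Of the 12, 4 were TACO models. The most abundant of these 12 is a TACO model of 3 exons on NEMVEscaffold_81 with no match to a reference model. It had 326, 344, 386, 366, and 295 CPM at 15 °C, 643, 886, 681, 422.5, and 757 CPM at 20 °C, and 273, 347, 323, 240.1, and 295 CPM at 25 °C, with every 20 °C library above the others.

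The gene models of the group were compared with those of all genes within the limits, in features that the choice did not use. Models assembled by TACO, in contrast to those of the JGI annotation, made up 46 of the 139 genes (33.1%), against 34.7% of all genes within the limits. TACO models with no match to any reference model were 20 of the 139 (14.4%), against 7.70%. These 20 had a median of 5 exons, 0 of them had a single exon, and together they held 30.1% of the mean CPM of the group. That share rests on a few abundant models, of up to 935 CPM. The median of their mean CPM was 28.9, near the 27.6 of the whole group. Of the 20, 3 were called higher and 6 lower at 25 than at 15 °C. Among all genes within the limits 17.6% were called higher and 17.6% lower. The shares over all TACO models without a match were not computed, so no lean is read from these counts.

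Chosen genes had shorter models with fewer exons. The median exon length was 1378 bp against 1579.5 bp for all genes within the limits, the median span was 4755 bp against 6021 bp, and the median exon number was 5 against 7. Models of at least 5 kb made up 49.6% against 57.2%. Single-exon models were 11.5% against 9.45%. A 3′ UTR was annotated in 44.6% of the chosen models, against 56.9%, and a 5′ UTR in 40.3%, against 53.0%. These shares are descriptions, and annotation of a UTR also depends on the source of the model.

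Reads in a stretch where models overlap can be miscounted or left out. Of the chosen genes, 7 (5.04%) overlapped a model on the same strand and 11 (7.91%) one on the opposite strand, against 7.48% and 10.6% of all genes within the limits. Counts of these genes are uncertain for that reason.

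The genes were spread over 107 of the 4660 scaffolds. At most 5 lay on 1 scaffold, NEMVEscaffold_2, which holds 159 models within the limits. Of all chosen genes, 12 formed 6 pairs of direct neighbors, and both genes of a pair lay on the same strand in 6 of the 6 pairs. Among all 6920 pairs of neighbors within the limits, 43.5% did. The 115 other genes within the limits that were direct neighbors of chosen genes had median differences of 0.16 (20 minus 15 °C) and 0.03 (20 minus 25 °C), against 0.08 and -0.01 over all genes within the limits.

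The shape was alike within some pairs and not within others, and 4 pairs are described, chosen after their values were seen. On NEMVEscaffold_48, TACO models from 854721 to 859939 and from 861732 to 881238 were both intermediate at 15 °C. The first averaged 172 ± 69.6 CPM at 15 °C, 240.5 ± 20.1 at 20 °C, and 93.1 ± 13.9 at 25 °C (SD, n = 5 libraries), and the second is the gene of second-highest CPM described above. Their deviations from the temperature means correlated at r = 0.933 over the 15 libraries. On NEMVEscaffold_2, models from 2668185 to 2669519 and from 2673347 to 2674598 averaged 7.75 and 11.4 CPM at 15 °C, 24.9 and 37.9 at 20 °C, and 18.2 and 24.8 at 25 °C, with r = 0.885. On NEMVEscaffold_15, models from 1242784 to 1243056 and from 1243909 to 1254105 averaged 39.3 and 162 CPM at 15 °C, 121 and 429 at 20 °C, and 77.6 and 275 at 25 °C, with r = 0.363. On NEMVEscaffold_101, by contrast, the gene from 317087 to 323182 differed by 0.93 (20 minus 15 °C) and 0.43 (20 minus 25 °C), and its neighbor from 327581 to 330818 by 0.60 and 0.86, with r = 0.212. Over the 6 pairs r ran from 0.02 to 0.933 with a median of 0.58, against a median of 0.27 for all same-strand neighbors within the limits. The gaps between the models of a pair ran from 852 to 47906 bp. Whether some pairs are parts of 1 transcript was not tested.

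Within a temperature the chosen genes did not move as one block. The mean correlation of their deviations from the temperature means was 0.116 over the 9591 gene pairs, against 0.132 over all genes within the limits. Of the pairs, 15.2% had r over 0.5 and 4.04% under -0.5. These correlations rest on 15 libraries that share depth and scaling among genes. The first component of the deviations held 25.5% of their variance, with 80 genes on its positive and 59 on its negative side. Its largest values belonged to replicate 2 at 15 °C (0.487) and replicate 1 at 20 °C (-0.431). The shares of pairs and the component were not computed over all genes within the limits, so they are not compared with other genes.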

How the data were processed

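The 139 genes, the gene lists, and the comparisons were chosen with earlier results of these data known. The authors deposited raw counts per gene model, for which the submitters' processing notes name Trimmomatic 0.38, HISAT2 2.1.0, StringTie 2.0, and featureCounts, and gene models from JGI and TACO as start and end positions. The study took its genome of the species from Ensembl Metazoa, and the sources used here do not name the assembly of the deposited models. Each library has 2 count columns, L1 and L2, whose meaning is not stated, and they were summed. The table's length column equaled the summed exons in 27527 of 27527 models. Counts of 2 libraries of one temperature differed 4.03 to 25.1 times as much as sampling noise, so no library was a copy.

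Libraries were grouped by temperature from their titles. Levels were computed with Python 3.11.15, pandas 2.3.3, and numpy 2.4.6, and plotted with matplotlib 3.10.9. The pseudocount of 1 makes fold changes of low genes smaller. The test of 25 against 15 °C used edgeR 4.0.16 under R 4.3.3 (TMM, filterByExpr, robust quasi-likelihood F-test, all 15 libraries, adjusted p under 0.05). This test gives no SE. The SE printed is the absolute log2 fold change divided by the square root of the F statistic. Alternatives were DESeq2 1.42.0, limma-voom (limma 3.58.1), other scalings, filters, limits, single columns, thinned libraries, and each library left out. Procedures were tested on simulated data.

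Named genes were the 2 with the largest smaller difference and, among called genes, the 1 with the smallest p in each direction. Other genes described without an identifier were chosen after their values were seen, except the 12 of largest difference and the 3 of highest CPM. Lists of functions and cell type markers rest on gene names, matched 0 identifiers, and were not used. No sequence of the genes was used here.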

Additional observations from a re-analysis of the deposited data

How the results depend on the processing

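The number of genes highest at 20 °C depended on the limits, by construction. It was 274 with both differences at least 0.3, 46 with at least 0.6, and 218 with no limit on mean CPM. Without a limit on SD it was 161, and other pseudocounts gave 146 (0.5) and 122 (2). TMM gave 123 and DESeq2 size factors 119, column L1 alone 140, column L2 alone 168, and thinned libraries 160, of which 123, 119, 122, 120, and 122 were among the 139. Leaving out 1 library gave 128 to 172, and 80 of the 139 genes stayed within the limits whichever library was left out. Over the same scalings, columns, and thinning the median difference ran from 0.63 to 0.75 (20 minus 15 °C), from 0.63 to 0.66 (20 minus 25 °C), and from 0.02 to 0.09 (25 minus 15 °C), and with 1 library left out, an alternative chosen after seeing the data, from 0.68 to 0.77, from 0.59 to 0.68, and from 0.04 to 0.15. The share of genes highest in the 20 °C library kept out was 88.6% with both differences at least 0.6 and 69.4% with thinned libraries. Without division by TMM factors the median gene within the limits was 0.10 higher at 25 than at 15 °C, and 0.05 higher with them.

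Called genes of the group numbered 26 to 30 (higher at 25 °C) and 17 to 23 (lower) over 7 other settings, and 23 to 31 and 17 to 22 with 1 library left out. All genes called numbered 3882 to 5905 and 4683 to 6175. No called gene of the group changed sign in these fits (0 genes), and the 4 named genes kept their side of the threshold in each. A replicate block gave 30 genes higher, 23 lower, and 5905 in all. Same-numbered libraries of different temperatures correlated at -0.16 to 0.41 with a mean of 0.10, over 0.1 in 6 of 15 pairs. Differently numbered libraries of different temperatures correlated at -0.44 to 0.43 with a mean of -0.03, over 0.1 in 13 of 60 pairs. The labels do not say that numbers mark a pairing.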

Other observations

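The gene models of the 63 genes lowest at 20 °C are given beside those of the 139 genes highest at 20 °C and of all genes within the limits, and the differences were not tested. Single-exon models were 28.6% of the 63, 11.5% of the 139, and 9.45% of all. TACO models were 20.6%, 33.1%, and 34.7%, in the same order. The median exon length was 820, 1378, and 1579.5 bp. A 3′ UTR was annotated in 44.4%, 44.6%, and 56.9%, and a 5′ UTR in 42.9%, 40.3%, and 53.0%. In 5 of the 63 genes (7.94%) all 20 °C libraries lay below the 10 others.

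Above the CPM limit, 3 of the 146 genes with a mean CPM of 1000 or more met the limits on SD and on both differences, and under a CPM of 5 there were 76 such genes. No library stood apart from the other 4 of its temperature (0 of 18 groups of 5 libraries) in the median level of the 139 genes, in their share of counts, or in the CPM of the 4 named genes, where chance gives 0.9.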
